A study of Homo sapiens with 40 samples.

Results

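The MAGE genes of the testis-restricted type were examined in A549 cells with and without disruption of SETDB1. The group held 10 genes (MAGEA1, MAGEA3, MAGEA4, MAGEA6, MAGEA10, MAGEA11, MAGEA12, MAGEB2, MAGEC1 and MAGEC2), taken by name, and all 10 were found among the 62486 gene IDs of the count table. A549 is an established line from a human lung adenocarcinoma. RNA was sequenced from 3 libraries of cells labelled Control (CT) and 3 libraries of cells labelled SETDB1 knockout (KO), in which the gene had been targeted with a guide RNA and Cas9 from the PX458 plasmid. The labels do not say whether the KO cells are 1 clone, whether the control cells received the plasmid, or whether the 3 libraries came from separate cultures, so p-values measure only the spread between these libraries.

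MAGE proteins share a conserved homology domain with which many of them bind RING-type ubiquitin ligases. The MAGE-A, MAGE-B and MAGE-C genes (type I) lie on the X chromosome and are normally used in male germ cells. In most other tissues they are held silent by DNA methylation of their promoters, and in many tumours some of them are switched on, which is why they are called cancer-testis genes. SETDB1 places H3K9me3, a histone mark of silent chromatin.

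The start-site windows of 3 members are shown: the pair that rose in KO cells, MAGEA6 and MAGEA12, and MAGEA4, which was silent in both genotypes. The stretches printed are the 250 bases before the RefSeq start (build GRCh38.p14), 5′ to 3′ on the strand of the gene, from the most upstream start where several are listed. Capitals mark the stretch GGATGTGA, which was chosen after the sequences were read and holds the core of a site for ETS family factors.
MAGEA6: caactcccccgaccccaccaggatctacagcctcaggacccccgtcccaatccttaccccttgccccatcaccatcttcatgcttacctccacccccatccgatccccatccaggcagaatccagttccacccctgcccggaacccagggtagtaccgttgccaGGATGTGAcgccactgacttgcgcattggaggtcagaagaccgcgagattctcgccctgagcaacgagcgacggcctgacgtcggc
MAGEA12: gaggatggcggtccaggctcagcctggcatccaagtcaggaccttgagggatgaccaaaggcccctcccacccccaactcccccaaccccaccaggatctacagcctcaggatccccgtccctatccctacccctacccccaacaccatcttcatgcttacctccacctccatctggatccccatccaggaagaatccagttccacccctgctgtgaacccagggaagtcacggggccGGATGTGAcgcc
MAGEA4: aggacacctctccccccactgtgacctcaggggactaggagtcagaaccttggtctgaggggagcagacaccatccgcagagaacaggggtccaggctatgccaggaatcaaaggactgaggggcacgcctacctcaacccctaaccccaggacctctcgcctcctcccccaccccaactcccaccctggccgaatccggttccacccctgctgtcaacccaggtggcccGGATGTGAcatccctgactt
The printed stretches lie at chrX:152769690.0-152769939.0 (minus strand) for MAGEA6, at chrX:152733507.0-152733756.0 (plus strand) for MAGEA12 and at chrX:151912224.0-151912473.0 (plus strand) for MAGEA4. The MAGEA3 stretch, at chrX:152698544.0-152698793.0 on the plus strand, has the same letters as that of MAGEA6, with 0 differing positions over the full RefSeq window of 300 bases, which adds the 50 bases after the start. The values that follow are for these 300-base windows. The MAGEA6 and MAGEA12 windows matched at 203 of 227 aligned positions (89.4%), and those of MAGEA6 and MAGEA4 at 173 of 287 (60.3%). In MAGEA6 the marked stretch starts 86 bases before the start site, in MAGEA12 12 bases and in MAGEA4 20 bases.

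RefSeq windows of 300 bases were found for 8 members, all but MAGEA1 and MAGEA10. The stretch GGATGTGA, read on both strands, was present in 6 of the 8, namely MAGEA3, MAGEA4, MAGEA6, MAGEA11, MAGEA12 and MAGEB2, and in 1.16% of 35116 windows of the same length over all genes. The stretch was chosen from these same windows, and some members are near copies of each other, so the comparison cannot show enrichment. The number of CpG dinucleotides, the places where DNA methylation occurs, was, over 300 bases, 19 in the MAGEA3 and MAGEA6 windows, 9 in MAGEA12, 10 in MAGEA4 and MAGEC2, 14 in MAGEC1 and 21 in MAGEA11 and MAGEB2, against a median of 14 over all windows. The printed 250 bases hold 15 of them in MAGEA6, 5 in MAGEA12 and 6 in MAGEA4. Members with and without RNA in the KO cells were found on either side of that median.

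The libraries held 18065062 to 48364919 counts, with KO replicate 2 the deepest. Levels are given in CPM, read counts relative to the TMM-scaled library size. SETDB1 RNA, the check of the knockout label, fell from 38.6 ± 1.04 to 21.9 ± 1.32 CPM (SD, n = 3 each; edgeR quasi-likelihood test, adjusted p 1.7e-12) and was thus still present in KO cells. SETDB1 protein was not analysed here. The A549 label was checked against epithelial and A549 markers, and all 12 (KRT8, KRT18, EPCAM, AKR1B10 and others) were at 1 CPM or more in both genotypes. In bulk RNA, more cells using a gene and more RNA per cell cannot be told apart.

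In control cells none of the 10 MAGE genes reached a mean of 1 CPM, the level used here for expressed. In KO cells 2 did, MAGEA6 and MAGEA12. MAGEA4 and MAGEA11 were silent, with 0 counts in all 6 libraries. The other 6 (MAGEA1, MAGEA3, MAGEA10, MAGEB2, MAGEC1 and MAGEC2) had traces, from 1 to 7 counts over all libraries and at most 4 in any library, and did not pass edgeR's expression filter. A count of 0 over a group allows up to 3 counts, which is 0.042 CPM over the 71650566 control counts and 0.032 CPM over the 93600607 KO counts. These limits cover counting error only.

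**Figure D1:**
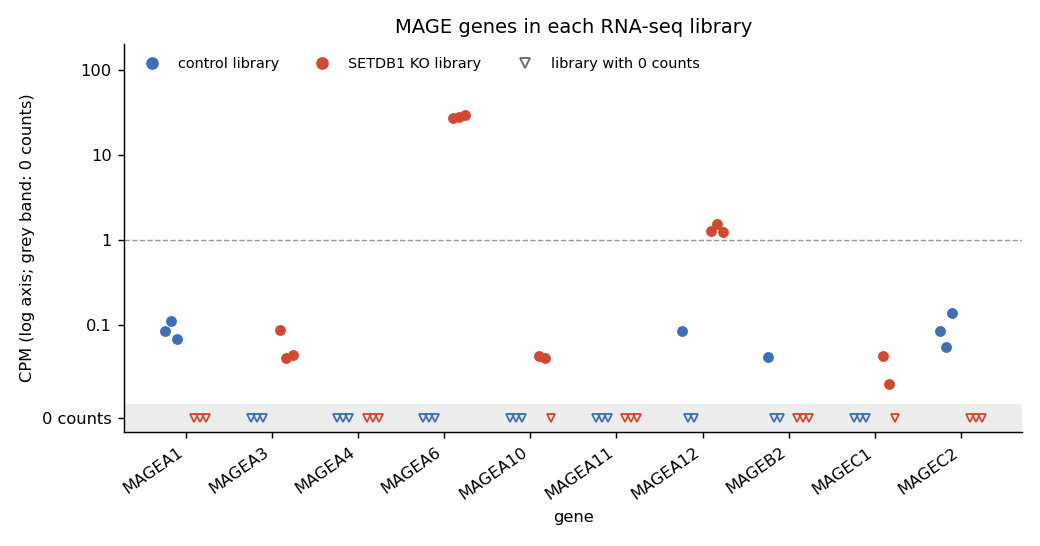
Level of each MAGE gene in CPM on a log axis, with 1 point per library (blue control, red KO), open triangles in the grey band for libraries with 0 counts and a dashed line at 1 CPM. MAGEA6 (27.3 to 29.1 CPM) and MAGEA12 (1.25 to 1.54 CPM) lie above the line in KO, and every other point is below it.

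MAGEA6 went from no reads to a clear signal. Its protein is a partner of the ubiquitin ligase TRIM28. MAGEA6 (ENSG00000197172) had 0, 0 and 0 counts in the control libraries and 626, 1372 and 652 counts in the KO libraries. Scaled to depth, the KO libraries held 27.3, 27.8 and 29.1 CPM, a mean of 28.1 ± 0.89 CPM (SD, n = 3). The 3 KO libraries lay close together despite their unequal depth, and the groups did not overlap. Against a floor of 3 counts over the control group, MAGEA6 was at least 661-fold higher in KO, and this bound was 389 to 666 when any 1 library was left out, the lowest without control replicate 3, the deepest control. The edgeR quasi-likelihood adjusted p was 1.6e-23. How reads that match both MAGEA6 and its near copy MAGEA3 were counted is not stated.

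MAGEA12 (ENSG00000213401), a close relative of MAGEA6 within the same Xq28 cluster, rose to a much lower count. It had 2, 0 and 0 counts in control and 29, 76 and 28 counts in KO. In CPM the KO libraries held 1.27, 1.54 and 1.25, a mean of 1.35 ± 0.16 (SD, n = 3), against 0.028 ± 0.049 (SD, n = 3) in control. Both control counts came from replicate 1, and the groups did not overlap. The ratio of pooled counts per scaled depth was 49.7 (exact 95% interval 13.5 to 415, counting error only). The log2 fold change was 5.41 (SE 0.51; edgeR adjusted p 3.2e-10), 8.31 without control replicate 1 and 4.73 without control replicate 3. The RefSeq span of MAGEA12 overlaps the pseudogene CSAG4, and since the strand setting of the counting is not stated, reads of the pair cannot be told apart.

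Those 2 were the members that could be tested, and both were called higher. Among all 17767 genes tested, 62.8% were called in either direction, 32.8% were called higher, 9.86% at least 2-fold higher and 4.85% at least 2-fold lower. A member that passes the expression filter only through the KO libraries had to differ, so the count of 2 of 2 says nothing about the group. Among all genes, 27789 had no count in any control library. Of these, 79 (0.284%) reached at least 1 CPM in every KO library, and of the 868 on chromosome X, 4 (0.461%) did, namely MAGEA6, GABRA3, MAGEA3-DT and MAOB.

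MAGEA3, whose protein is nearly the same as that of MAGEA6 and also binds TRIM28, stayed near 0. MAGEA3 (ENSG00000221867) had 0, 0 and 0 counts in control and 2, 2 and 1 counts in KO, at 0.057 ± 0.026 CPM (SD, n = 3) in KO. All 3 KO libraries held at least 1 count and no control library did. The share of genes with so few counts that separate in this way was not counted. With 3 libraries against 3, the exact two-sided permutation test gave p = 0.10, the smallest it can give. The genes have RefSeq spans of equal length, 3554 bases each, introns included. The exon lengths used in the counting were not compared. Of the reads given to either gene, 99.7% (95% Wilson interval 98.8 to 99.9), 99.9% (99.5 to 99.96) and 99.8% (99.1 to 99.97) went to MAGEA6 in KO replicates 1, 2 and 3. How the counting treated reads that match both copies is not stated, so the split between them is uncertain. With both genes summed, the log2 fold change was 12.60, as for MAGEA6 alone (12.59).

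MAGEA10 had 0, 0 and 0 counts in control and 1, 2 and 0 counts in KO (exact permutation p = 0.40). MAGEC1 had 0, 0 and 0 counts in control and 1, 1 and 0 counts in KO (exact permutation p = 0.40). MAGEB2, from a separate cluster on the short arm of the X chromosome, had a single count, in control replicate 1. For these 3 genes neither genotype exceeded the floor of 3 counts, so no difference was detectable at this depth.

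MAGEA1 and MAGEC2 went the other way, on very few reads. MAGEA1, the first MAGE gene described as a target of T cells in melanoma, had 2, 2 and 2 counts in control and 0, 0 and 0 counts in KO. MAGEC2, another partner of TRIM28, had 2, 1 and 4 counts in control and 0, 0 and 0 counts in KO. Every control library held a read of each gene and no KO library did, although KO replicate 2 was the deepest library. How many other genes with so few counts separate in this way was not counted, so it does not set these genes apart. Against a floor of 3 counts over the KO group, MAGEA1 was at least 2.67-fold and MAGEC2 at least 3.12-fold lower, with the 6 and 7 control counts taken without their own counting error. When 1 library was left out, these bounds were 1.28 to 3.03 and 1.495 to 3.59, the lowest without KO replicate 2. The exact permutation test gave p = 0.10 for each, the smallest it can give. When every gene with at least 1 count was tested, the edgeR adjusted p was 0.028 for MAGEA1 (log2 fold change -4.28, SE 1.61). For MAGEC2 the edgeR adjusted p was 0.015 (log2 fold change -4.48, SE 1.56). In that fit the number of members called went from 2 to 4, and 11988 of the 38852 genes tested were called.

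The members' reads in KO were assigned almost wholly to 1 gene, MAGEA6, whose split from MAGEA3 is uncertain as said above. Summed counts over the 10 genes were 7, 3 and 6 in control and 659, 1453 and 681 in KO. MAGEA6 gave 95.0%, 94.4% and 95.7% of the KO counts and none of the control counts. These are shares of reads, not of levels per length.

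In the Xq28 cluster that holds MAGEA6, 3 neighbours of members were called higher from at most 3 control counts. Others stayed at or near 0. The 3 passed the expression filter only through the KO libraries and had to differ, so their calls say nothing about the cluster. GABRA3, a subunit of the GABA-A receptor, had 0 counts in the control libraries and 79, 191 and 86 counts in KO (3.72 ± 0.23 CPM, SD, n = 3), at least 88.7-fold higher against the floor of 3 counts (52.2 to 91.1 when 1 library was left out, the lowest without control replicate 3; edgeR adjusted p 4.3e-15). The long noncoding RNA MAGEA3-DT had 0 counts in control and 44, 87 and 30 counts in KO, at least 40.1-fold higher (23.6 to 42.8 when 1 library was left out, the lowest without control replicate 3; edgeR adjusted p 2.2e-11). CSAG1, a cancer-testis gene next to MAGEA12, had 2, 0 and 1 counts in control and 14, 41 and 16 counts in KO (ratio of pooled scaled counts 17.7, exact 95% interval 5.82 to 87.9; edgeR adjusted p 2.0e-07). Its log2 fold change was 4.0 (SE 0.53) and 4.88 without control replicate 1. These genes were read in every KO library.

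KRT8P8, a keratin pseudogene 1 row before MAGEA3-DT in the table, did not pass the expression filter and was named after its values were seen. It had 0, 1 and 2 counts in control and 5, 10 and 10 counts in KO, and the groups did not overlap (ratio of pooled scaled counts 6.23, exact 95% interval 1.90 to 32.2, counting error only). KRT8, the keratin gene it is named after, was at 2271 ± 139 CPM in control and 6594 ± 261 CPM in KO (SD, n = 3; pooled ratio 2.92). Whether reads of KRT8 were counted at KRT8P8 was not tested.

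The neighbours were not all switched on. MAGEA2, MAGEA2B, MAGEA6-DT and CSAG4 had at most 6 counts in KO and 0 in control. The microRNA genes MIR105-1, MIR767 and MIR105-2, which lie within GABRA3, had 0, 3 and 1 counts in KO and 0 in control, in libraries made from total RNA that were not built to capture mature microRNAs. GABRQ, a further GABA receptor subunit, had 16, 16 and 16 counts in control and 16, 45 and 22 counts in KO (log2 fold change 0.36, SE 0.27, edgeR adjusted p 0.24). CETN2, a centrin gene near MAGEA6, was at 52.9 ± 3.74 CPM in control and 60.4 ± 1.57 CPM in KO (SD, n = 3; log2 fold change 0.19, SE 0.053, edgeR adjusted p 0.0027).

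**Figure D2:**
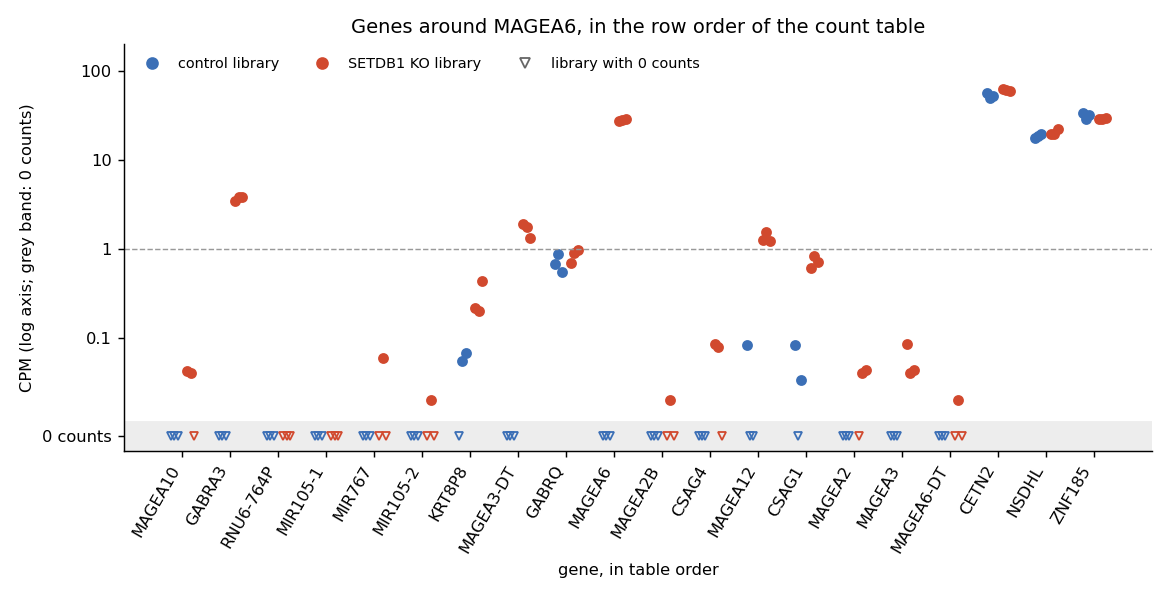
Levels in CPM (log axis) of the named genes from MAGEA10 to ZNF185 in the row order of the count table, with 1 point per library (blue control, red KO) and open triangles for libraries with 0 counts. MAGEA6 (28.1 CPM), GABRA3 (3.72 CPM), MAGEA3-DT (1.67 CPM) and MAGEA12 (1.35 CPM) pass the dashed line at 1 CPM in KO only, while CETN2 and NSDHL lie at similar levels in both genotypes.

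The order of the copies differs between the count table and the current reference. In the table, MAGEA3-DT stood 3 rows before MAGEA6, and MAGEA6-DT stood 1 row after MAGEA3. In RefSeq on GRCh38.p14, MAGEA3-DT starts 67 bases from MAGEA3 on the opposite strand, and MAGEA6-DT is the neighbour of MAGEA6. Rows of the table followed the GRCh38 order for 96.0% of 1825 adjacent pairs on chromosome X. The RNA pair that was read together in KO is thus MAGEA6 with MAGEA3-DT, named by gene ID, and the other pair, MAGEA3 with MAGEA6-DT, had 5 and 1 counts in KO. The coordinates printed above for the start-site windows are those of GRCh38.p14 and not of the build used for counting.

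By the 3 nearest genes on either side of each member in RefSeq order on GRCh38.p14, 43 different neighbours were found. Of these, 24 had no count in any library and 10 could be tested, with 5 called higher and 2 lower. The 3 called at least 2-fold higher were GABRA3, beside MAGEA10, MAGEA3-DT, beside MAGEA3, and CSAG1, near MAGEA3, MAGEA6 and MAGEA12. As said above, these passed the filter only through the KO libraries and had to differ. PNMA6A, a paraneoplastic antigen family gene beside MAGEA1, was the only one called at least 2-fold lower. It went from 0.64 ± 0.15 to 0.29 ± 0.027 CPM (SD, n = 3, log2 fold change -1.09, SE 0.33). The edgeR adjusted p was 0.0058, and 0.059 without control replicate 1. PNMA6A passed the expression filter only through the control libraries, so its lower call was favoured in advance. Over the 498 tested genes of chromosome X, 61.0% were called, 32.3% higher and 28.7% lower, and 9.04% at least 2-fold higher, with a median log2 fold change of -0.0063, beside 32.8%, 30.0% and a median of 0.0038 over all genes.

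The rest of the type I family was silent or near silent. Of 16 further type I genes in the table (among them MAGEA2, MAGEA8, MAGEA9, MAGEB1 and MAGEC3), 11 had no count in any library, 5 had at most 3 counts in all, and none could be tested. Other X-linked cancer-testis genes gave a like picture. Of 54 in the table, including CTAG1B (NY-ESO-1) and the SSX, GAGE, XAGE and CT47 families, 42 had no count, 11 had up to 14 counts over all libraries, and CSAG1 was the single gene tested. PASD1, which was chosen after its values were seen, had 0 counts in control and 2, 5 and 4 counts in KO.

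Type II MAGE genes, which are used in many tissues and are not restricted to the testis, behaved differently from gene to gene. Of 11 genes, 7 were tested, 4 were called higher, none lower and 3 were not called, with a median log2 fold change of 0.43. Over all genes tested 62.8% were called, 32.8% higher and 30.0% lower, with a median of 0.0038. NDN (necdin), an imprinted growth suppressor on chromosome 15, had 0, 0 and 0 counts in control and 225, 568 and 258 counts in KO, or 10.9 ± 0.98 CPM (SD, n = 3). It was at least 262-fold higher against the floor (154 to 272 when 1 library was left out, the lowest without control replicate 3; edgeR adjusted p 2.4e-19). NDN passed the expression filter only through the KO libraries, so its call had to be higher. MAGEL2, the imprinted neighbour of NDN, had 0 counts in all 6 libraries.

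MAGED1, which binds the ubiquitin ligase PJA1 and the neurotrophin receptor p75, rose from 78.1 ± 0.52 to 167 ± 6.82 CPM (SD, n = 3; log2 fold change 1.10, SE 0.045, edgeR adjusted p 3.8e-18). MAGED2 rose from 75.6 ± 0.61 to 102 ± 3.55 CPM (log2 fold change 0.43, edgeR adjusted p 4.1e-09) and MAGEH1 from 10.3 ± 1.06 to 14.0 ± 0.91 CPM (log2 fold change 0.43, edgeR adjusted p 9.6e-05). MAGEE1, MAGEF1 and NSMCE3, the last a subunit of the SMC5/6 complex, were not called, with log2 fold changes of 0.039, 0.024 and 0.040 and SEs of 0.086, 0.067 and 0.060. All MAGED1, MAGED2 and MAGEH1 values in KO lay above those in control, and the share of all genes that separate in this way was not counted.

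**Figure D3:**
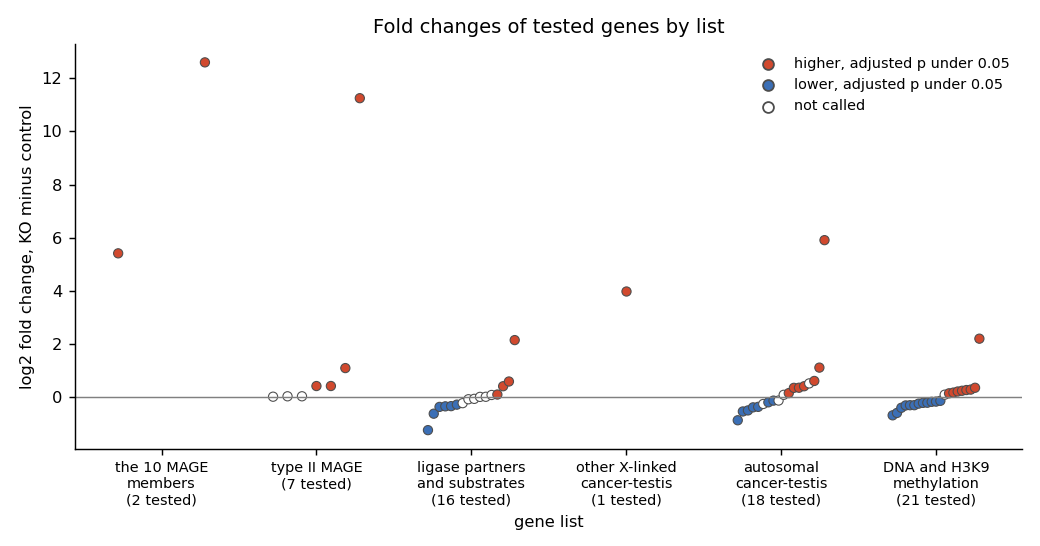
Log2 fold change (KO minus control) of each tested gene by list, with the number tested below each name; red is called higher, blue called lower (edgeR adjusted p under 0.05) and white not called, and the grey line is the median of all genes. MAGEA6 and NDN stand highest (12.59 and 11.25; both had 0 control counts, so these fitted values depend on the prior count), and most genes of the other lists lie near the line.

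The ubiquitin ligases and substrates that MAGE proteins act on were measured in both genotypes. Of 16 genes, all were tested, 4 were called higher, 6 lower and 6 were not called, with a median log2 fold change of -0.064, beside 32.8% higher, 30.0% lower and a median of 0.0038 over all genes; the share called is near that of all genes (62.8%). TRIM28, named here after its values were seen because MAGEA3, MAGEA6 and MAGEC2 bind it, was at 599 ± 39.8 CPM in control and 575 ± 26.8 CPM in KO (SD, n = 3; log2 fold change -0.057, SE 0.047, edgeR adjusted p 0.30). PRKAA2, a catalytic subunit of the energy sensor AMPK, fell from 41.3 ± 4.50 to 17.6 ± 0.56 CPM (log2 fold change -1.23, SE 0.070, edgeR adjusted p 2.4e-14). SKP2, a substrate receptor of an SCF ubiquitin ligase, fell from 33.1 ± 0.56 to 21.5 ± 1.27 CPM (log2 fold change -0.61, edgeR adjusted p 9.4e-10). PJA1 rose from 23.7 ± 1.12 to 35.8 ± 0.97 CPM (log2 fold change 0.60, edgeR adjusted p 1.0e-09) and TRIM27, the ligase bound by MAGEL2, from 15.0 ± 0.30 to 20.03 ± 0.68 CPM (log2 fold change 0.42, edgeR adjusted p 5.3e-06). TRIM31, the ligase bound by MAGEA1, rose from 0.14 ± 0.15 to 0.69 ± 0.14 CPM, on 11 control and 67 KO counts. Its log2 fold change was 2.15 (SE 0.45, edgeR adjusted p 1.5e-04), and 3.00 without control replicate 1. TRIM31 passed the expression filter only through the KO libraries, so its higher call was favoured in advance.

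Genes linked to DNA methylation and H3K9 methylation changed in both directions. Many take part in silencing of MAGE genes in other cells, while the TET enzymes remove DNA methylation. The counts below mix both kinds. Of 21 tested, 8 were called higher and 12 lower, with a median log2 fold change of -0.16, beside 32.8% higher, 30.0% lower and a median of 0.0038 over all genes. The count of lower genes was 8, with 8 higher, under scaling by library size only, and 8, with 7 higher, without control replicate 3 or without KO replicate 3. ATF7IP, the cofactor that stabilises SETDB1, rose from 65.2 ± 3.28 to 302 ± 12.7 CPM (SD, n = 3; log2 fold change 2.21, SE 0.048, edgeR adjusted p 2.0e-24). The demethylation enzyme TET3 fell from 38.6 ± 2.00 to 24.0 ± 0.43 CPM (log2 fold change -0.68, edgeR adjusted p 5.8e-11), the DNA methyltransferase DNMT3B from 11.3 ± 0.35 to 7.49 ± 0.12 CPM (-0.59, edgeR adjusted p 8.6e-07) and the H3K9 methyltransferase SUV39H2 from 30.2 ± 1.37 to 23.1 ± 1.16 CPM (-0.39, edgeR adjusted p 3.0e-06). TET1 rose from 7.97 ± 0.70 to 10.2 ± 0.78 CPM (0.36, edgeR adjusted p 0.0014). The maintenance methyltransferase DNMT1, named after its values were seen, was at 122 ± 0.55 and 108 ± 6.10 CPM (-0.17, SE 0.046, edgeR adjusted p 0.0023). The part of these changes in the MAGEA6 result was not tested.

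Autosomal cancer-testis genes were mixed. Of 43 in the table, 18 were tested, with 7 called higher, 7 lower and 4 not called, and a median log2 fold change of -0.013, beside 32.8% higher, 30.0% lower and a median of 0.0038 over all genes. PIWIL1, a germline protein that binds small RNAs, had 0, 0 and 1 counts in control and 23, 57 and 26 counts in KO (log2 fold change 5.91, SE 0.57, edgeR adjusted p 4.9e-10; 7.93 without control replicate 3). PIWIL1 passed the expression filter only through the KO libraries. ZNF165 rose from 1.51 ± 0.13 to 3.25 ± 0.15 CPM (log2 fold change 1.12, edgeR adjusted p 5.4e-07). The mitotic kinases PBK and TTK fell by 0.86 and 0.53 on the log2 scale (edgeR adjusted p 4.1e-14 and 1.3e-10). TSSK6 had a log2 fold change of 0.62 (edgeR adjusted p 0.015) that did not pass without KO replicate 2 (0.098), without control replicate 2 (0.059) or in DESeq2 (0.090).

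Markers of testis cells were read beside the MAGE genes. Of 14 germ cell markers, 8 had no count in any library, including DAZL, PRM1 and PRM2, and 5 had at most 40 counts over all libraries, including DDX4. Their summed level was 3.86 to 4.88 CPM in control and 72.5 to 85.1 CPM in KO. Nearly all of it was SYCP2, a protein of the meiotic chromosome axis, which rose from 3.97 ± 0.54 to 77.1 ± 6.64 CPM (SD, n = 3; log2 fold change 4.26, SE 0.086, edgeR adjusted p 1.0e-23). Of 8 Sertoli and Leydig cell markers 5 were tested, 3 called higher (SOX9, AMH and INSL3) and 0 lower. Over all genes tested 32.8% were called higher and 30.0% lower. AMH overlapped between the groups (9.43 to 13.7 CPM in control, 13.1 to 16.7 CPM in KO), and INSL3 was below 1 CPM in every library. INSL3 passed the expression filter through its KO libraries, so its higher call was favoured in advance. Summed levels of the 8 markers were 39.6 to 43.8 CPM in control and 71.1 to 79.8 CPM in KO. Summed levels in control and KO were 3.57 to 3.70 and 4.89 to 5.30 CPM for 6 fibroblast markers, 9.43 to 10.6 and 5.41 to 7.22 CPM for 6 leukocyte markers, and 40.7 to 43.4 and 59.8 to 64.4 CPM for 6 melanocyte markers, the last mostly MITF. The part of these levels in the MAGE results was not tested.

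The genes whose profile over the 6 libraries was most like that of MAGEA6, by the root mean square difference of centred log2 CPM, were the zinc finger genes ZNF676 (0.17), ZNF736 (0.18) and ZNF808 (0.19 log2 units). ZNF676 had 0 control and 2108 KO counts. For MAGEA12 they were ENSG00000255085 (0.17), NLRP4 (0.20) and DIRAS3 (0.25 log2 units). NLRP4, a gene used in oocytes and testis, had 1 control and 107 KO counts, and DIRAS3, an imprinted gene, had 64 and 1478. With 6 libraries in 2 groups, the genotype sets most of such a profile. By Pearson correlation the 3 nearest genes were different ones for each, with 0 shared.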

How the data were processed

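RNA-seq libraries were made from total RNA with a stranded kit, per the labels. The authors deposited 1 table of raw read counts by gene ID. The submitters' processing notes name STAR 2.6.1c, SAMtools 1.5, edgeR 3.30.0 and the build hg19 without roles; the counter, its strand setting and its treatment of reads with several matches are not given in the sources used here. Columns were matched to samples by title, and 0 columns were left unmapped. Of 62486 IDs, 58642 (93.8%) matched the name table; chromosome and gene order came from RefSeq on GRCh38.p14, which covered 87.9% of the genes tested.

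KO was set against control with edgeR 4.0.16 under R 4.3.3, by the quasi-likelihood test with robust dispersion, TMM scaling and the filterByExpr filter, in a model holding genotype alone (Benjamini-Hochberg over all genes tested, at 0.05); SEs were derived from the F statistic. CPM used TMM-scaled library sizes, and log2 CPM a prior count of 2. Exact permutation tests (scipy 1.17.1, Python 3.11.15) were two-sided. Windows were aligned with Biopython 1.88, without penalty for overhanging ends. On simulated counts for this comparison (17579 genes run, 200 changed), 84.7% of 2-fold and 100% of 4-fold changes were recovered, and 2.14% of calls were false. Replicate libraries differed by more than counting noise in every pair (chi-square per degree of freedom 1.66 to 6.70), and none was merged.

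All 10 members are named; of each other list, the genes called in the fit that are among its 5 largest changes; of neighbours, those called and changed at least 2-fold, while other neighbours were named after their values were seen. The members and lists were chosen with earlier results of these data known. Alternatives were DESeq2 1.42.0, voom in limma 3.58.1, upper quartile, RLE or no scaling, other expression filters, thinning to the smallest library, summing near-identical copies, a replicate block and leaving out each library. Peak, domain and compartment files were not used here, because they cannot be read at the MAGE genes without an annotation of their build; for the same reason the planned overlap of peaks with start sites was not run. Protein identity was not analysed here.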

Additional observations from a re-analysis of the deposited data

How the results depend on the processing

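MAGEA6 and MAGEA12 stayed called higher in all 16 alternative fits, with log2 fold changes of 10.34 to 12.69 and 4.73 to 8.31 and adjusted p-values of at most 2.7e-15 and 7.4e-07. Without an expression filter, 4 members were called, all 4 at least 2-fold. Of the 38852 genes tested in that fit, 11988 were called and 4020 changed at least 2-fold. In it 2 other X-linked cancer-testis genes were higher. With at least 1 CPM in 3 libraries, 0 of the latter remained tested, and 2 ligase partners or substrates were higher, as after thinning (2). At a mean of at least 10 CPM, 1 member counted as expressed in KO. The genes most like MAGEA6 and MAGEA12 shared 0 members with the Pearson choice. The filters change which genes are tested. Of the 4 ligase partners or substrates called higher with the filter used above, TRIM31 alone was below 1 CPM. The cause of the other lost call was not tested, nor was that of the differences with thinning and the Pearson choice.

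Leaving out each library gave 2 members called each time and 10174 to 11085 genes changed. Libraries with the same number hardly deviated together (r = 0.11, 0.064 and 0.047 across genes), so the numbers were not taken to pair them. A replicate block gave 2 members and 11655 genes called. Library size only moved the median log2 fold change of all genes by 0.031 and upper quartile scaling by -0.035, more than the median of the autosomal cancer-testis list. Of genes changed, 52.2% were higher, 55.7% with library size only and 48.4% with upper quartile scaling. For the lists, fits other than the scalings were added after the data were seen. Traces of 7 counts or fewer limit what can be said of 6 members.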
